A study of Rattus norvegicus with 9 samples.

Results

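The lysosome genes were 47 genes listed by symbol for their place in the lysosome, its membrane or its control, and 46 of them were measured among the 14213 genes of the array. They comprised 11 proteases, 9 glycosidases, 6 lipid, ester and sulfate hydrolases, 3 soluble cofactors, 10 membrane proteins, 5 subunits of the proton pump, 2 transcription factors and 1 autophagy receptor. Each gene was represented by the probe set, annotated to exactly 1 gene, that had the highest mean over the arrays. Npc1, whose protein carries cholesterol out of the lysosome, was not measured here, which left 9 membrane proteins.

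Primary Schwann cells of the rat came from sciatic nerve, whose axons these glia wrap. All cultures were transfected transiently with RNAi oligonucleotides, and total RNA was taken 48 h after transfection and hybridised to Affymetrix rat arrays. NF1 RNAi + U0126 cultures received oligonucleotides against Nf1 together with U0126, an inhibitor of the kinase MEK. NF1 RNAi cultures received the oligonucleotides against Nf1 without the inhibitor, and Control RNAi cultures received a scrambled sequence without it. Each group had 3 arrays, described by the submitters as independent biological replicates, so 9 arrays in all. Nf1 encodes neurofibromin, a protein that switches off Ras, and MEK acts downstream of Ras. The comparison of NF1 RNAi with Control RNAi therefore asked how lysosome genes differed after the knockdown, and that of NF1 RNAi + U0126 with NF1 RNAi alone asked how they differed when MEK was inhibited in knockdown cells. No group with U0126 and the scrambled oligonucleotide was analysed here, and the labels do not say whether cultures without U0126 received its solvent.

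Lysosomes are acidic compartments in which proteins, sugars, lipids and sulfate esters are broken down. A proton pump, the V-ATPase, acidifies them, and most of their soluble hydrolases reach them through the mannose 6-phosphate sorting route. In human and mouse cells the related transcription factors TFEB, TFE3 and MITF raise many lysosomal and autophagy genes by binding promoters that hold a short palindrome, CACGTG, and the nutrient-sensing kinase mTORC1 holds these factors in the cytoplasm. In Schwann cells lysosomes and autophagy take part in the breakdown of myelin after nerve injury, and inherited loss of several lysosomal enzymes harms myelin.

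Promoter windows of 300 bases, 250 before and 50 after the RefSeq start of each gene in the build GRCr8, were searched for CACGTG. A window was matched for 38 of the 47 lysosome genes, and 9 of these 38 windows (23.7%) held the motif. The share was 6.42% of all 33469 windows and 9.35% of the 11736 array genes with a window. For the longer TCACGTG, read on both strands and always overlapping a CACGTG, the counts were 8 of the 38 lysosome genes (21.1%), 3.2% of all windows and 5.32% of the array genes with a window. The 9 genes with CACGTG were Atp6v0d1, Cd63, Cln3, Ctsd, Gaa, Galc, Glb1, Lamp1 and Mcoln1. A match is a run of letters and says nothing by itself about binding. The windows of Cln3 and Gaa are printed because their levels are given array by array further on. Those of Lamp1 and Mcoln1 were added after the windows had been read because they held several copies. Ctsd also held 2 copies, starting 157 and 10 bases before the start, and its window is not printed. Capitals mark CACGTG, which reads the same on either strand. Cln3 (chr1:190597880-190598179, minus strand) held copies starting 66 and 38 bases before the start, and Gaa (chr10:105028105-105028404, plus strand) held 1 copy starting 67 bases before it. Lamp1 (chr16:83075014-83075313, minus strand) held 5 copies starting 183, 167, 150, 65 and 38 bases before the start. Mcoln1 (chr12:6358008-6358307, plus strand) held 2 copies, the first starting 22 bases before the start and the second starting at base 5 after it.
Cln3: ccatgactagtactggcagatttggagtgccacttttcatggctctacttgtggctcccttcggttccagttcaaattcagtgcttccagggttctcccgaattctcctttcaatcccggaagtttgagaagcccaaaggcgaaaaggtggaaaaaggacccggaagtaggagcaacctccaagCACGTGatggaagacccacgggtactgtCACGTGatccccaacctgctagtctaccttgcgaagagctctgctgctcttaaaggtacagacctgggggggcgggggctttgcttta
Gaa: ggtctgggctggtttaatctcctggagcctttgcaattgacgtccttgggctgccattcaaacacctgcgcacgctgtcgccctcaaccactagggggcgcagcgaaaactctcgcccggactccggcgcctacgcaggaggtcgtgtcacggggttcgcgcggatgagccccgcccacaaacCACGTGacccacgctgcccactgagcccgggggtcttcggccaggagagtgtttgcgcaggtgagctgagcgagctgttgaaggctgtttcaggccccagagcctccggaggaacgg
Lamp1: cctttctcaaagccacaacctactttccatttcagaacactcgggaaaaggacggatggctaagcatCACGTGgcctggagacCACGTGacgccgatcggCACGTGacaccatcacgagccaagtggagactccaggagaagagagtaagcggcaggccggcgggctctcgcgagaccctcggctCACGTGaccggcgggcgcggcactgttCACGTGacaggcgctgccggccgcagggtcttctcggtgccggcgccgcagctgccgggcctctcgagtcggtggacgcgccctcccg
Mcoln1: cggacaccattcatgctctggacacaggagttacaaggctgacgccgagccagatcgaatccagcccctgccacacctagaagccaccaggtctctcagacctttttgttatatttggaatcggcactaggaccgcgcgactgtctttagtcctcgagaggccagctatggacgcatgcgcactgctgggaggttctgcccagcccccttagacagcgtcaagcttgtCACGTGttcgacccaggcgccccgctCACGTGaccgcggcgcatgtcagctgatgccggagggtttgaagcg

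Values are log2(intensity + 1) after robust multi-array averaging (RMA), and differences between groups are log2 fold changes on that scale, with standard errors from limma. A gene is called higher or lower where the Benjamini-Hochberg adjusted p over all 14213 genes was under 0.05. The medians of the 9 arrays lay between 95.0 and 97.1 in intensity. Nf1 itself averaged 5.52 ± 0.18 with NF1 RNAi + U0126, 5.42 ± 0.02 with NF1 RNAi and 6.46 ± 0.27 with Control RNAi (SD, n = 3 each), and fell by 1.05 ± 0.13 in NF1 RNAi cells against Control RNAi cells (adjusted p = 0.000695). Replicate 1 stood apart in each group. Over the lysosome genes, its log2 differences from the other 2 Control RNAi arrays had SDs of 0.246 and 0.31, against 0.102 between those 2. The same SDs were 0.15 and 0.197 against 0.103 for NF1 RNAi, and 0.225 and 0.283 against 0.121 for NF1 RNAi + U0126. Without Control RNAi replicate 1, 12 lysosome genes rose and 4 fell with NF1 RNAi against Control RNAi. With NF1 RNAi + U0126 against Control RNAi, 24 rose and 5 fell without it. Without all 3 replicate 1 arrays these counts were 13 and 4, and 24 and 6. Of the Schwann cell markers, S100b averaged 13.66, 14.04 and 13.24, and Sox10 11.18, 11.38 and 11.40, with NF1 RNAi + U0126, NF1 RNAi and Control RNAi in that order. With U0126 against NF1 RNAi, 3 of the 5 measured Schwann markers were called lower: S100b fell by 0.38 ± 0.07 (adjusted p = 0.00987), Foxd3 fell by 0.47 ± 0.07 (adjusted p = 0.00311) and Erbb3 fell by 1.08 ± 0.22 (adjusted p = 0.0122), while Sox10 and Ngfr differed by -0.20 and 0.31 and passed no test. With NF1 RNAi against Control RNAi 1 was called higher, S100b. With NF1 RNAi + U0126 against Control RNAi S100b was called higher and Sox10 and Foxd3 lower. With the replicate block Erbb3 was also called, higher with NF1 RNAi (adjusted p = 0.000939) and lower with NF1 RNAi + U0126 (adjusted p = 0.000457), and Ngfr higher with NF1 RNAi + U0126 (adjusted p = 0.0356), each against Control RNAi. The Erbb3 call was lost without NF1 RNAi replicate 2, and that of Sox10 without Control RNAi replicate 1 or 2 or NF1 RNAi + U0126 replicate 3. The summed intensity of the 5 measured Schwann markers was 25753.3 to 26283.0 with NF1 RNAi + U0126, 28947.9 to 29025.2 with NF1 RNAi and 17470.0 to 22676.6 with Control RNAi. That of the 8 fibroblast markers was 12178.2 to 17250.5, 15419.7 to 16454.2 and 21134.2 to 23273.0 in the same order, and that of the 6 neuron markers 1399.5 to 1762.3, 529.2 to 1115.5 and 2284.0 to 4515.7. The 6 endothelial and mural markers summed to 363.2 to 480.7, 372.5 to 386.4 and 416.5 to 556.2. Members of these lists differed in direction. Against Control RNAi, 1 fibroblast marker was called higher and 2 lower with NF1 RNAi (12.5% and 25.0%, all genes 13.0% and 13.3%). Ogn was 0.68 higher there, while Col3a1 differed by -2.06 and Col1a1, at the highest mean level, by -0.21. A second Col1a1 probe set, at a mean of 13.07, differed there by -0.65 ± 0.15 (adjusted p = 0.0156 over all probe sets). Of the neuron markers 1 was called higher and 2 lower (16.7% and 33.3%). The 2 negative differences there were those of Tubb3 (-2.30) and Nefl (-2.25). A second Nefl probe set differed by -2.22. That of Tubb3, at a low mean of 4.47, differed by -0.002 ± 0.069 (adjusted p = 0.991 over all probe sets). The part that other cells had in the results below was not tested. In such bulk RNA, fewer cells of a type and less RNA per cell cannot be told apart.

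In NF1 RNAi cells against Control RNAi cells, 15 of the 46 measured lysosome genes rose, 7 fell and 24 were not called. The 22 called genes are 47.8% of those measured, where 26.3% of all genes were called. Higher calls made up 32.6% of the lysosome genes against 13.0% of all genes, and lower calls 15.2% against 13.3%. The median log2 fold change was 0.15 over the lysosome genes and 0.02 over all genes. The 2 groups did not overlap in 30 of the 46 genes (65.2%), compared with 41.2% of all genes. The lysosome genes were bright, with a median percentile of 88.6 among all genes, and the shares above include dim genes. A refit of the 10159 genes at log2 6 or more on at least 3 arrays held 44 of the 46 lysosome genes. In it 37.7% of genes were called, 1953 higher and 1875 lower, and 16 lysosome genes were higher and 7 lower. Shares of such genes in the next comparisons are from the same refit.

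Adding U0126 to NF1 RNAi was followed by 13 higher lysosome genes, 1 lower gene and 32 that were not called, relative to NF1 RNAi alone. These 14 genes are 30.4% of those measured, where 13.7% of all genes were called, or 20.7% of those at log2 6 or more on at least 3 arrays. The higher calls were 28.3% of the lysosome genes against 6.71% of all genes, and the lower call was 2.17% against 7.02%. Their median log2 fold change was 0.19, beside 0.02 over all genes, and the groups did not overlap in 25 genes (54.3%, all genes 33.9%).

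With NF1 RNAi + U0126 against Control RNAi, 24 lysosome genes rose, 6 fell and 16 were not called. The 30 called genes are 65.2% of those measured, where 35.5% of all genes were called, or 48.4% of those at log2 6 or more on at least 3 arrays. Higher calls were 52.2% of the lysosome genes against 17.9% of all genes, and lower calls 13.0% against 17.6%. The median was 0.26, beside 0.04 over all genes, and 35 genes (76.1%, all genes 47.2%) had groups that did not overlap. The 3 comparisons are not independent, since each pair of them shares the arrays of 1 group. Cln3, Atp6v1b2 and Atp6ap1 were called higher in all 3 comparisons, and 11 genes were called in none: Ctsk, Ctsl, Ctss, Hexa, Fuca1, Asah1, Smpd1, Psap, Scarb2, Laptm4a and Tfeb.

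**Figure D1:**
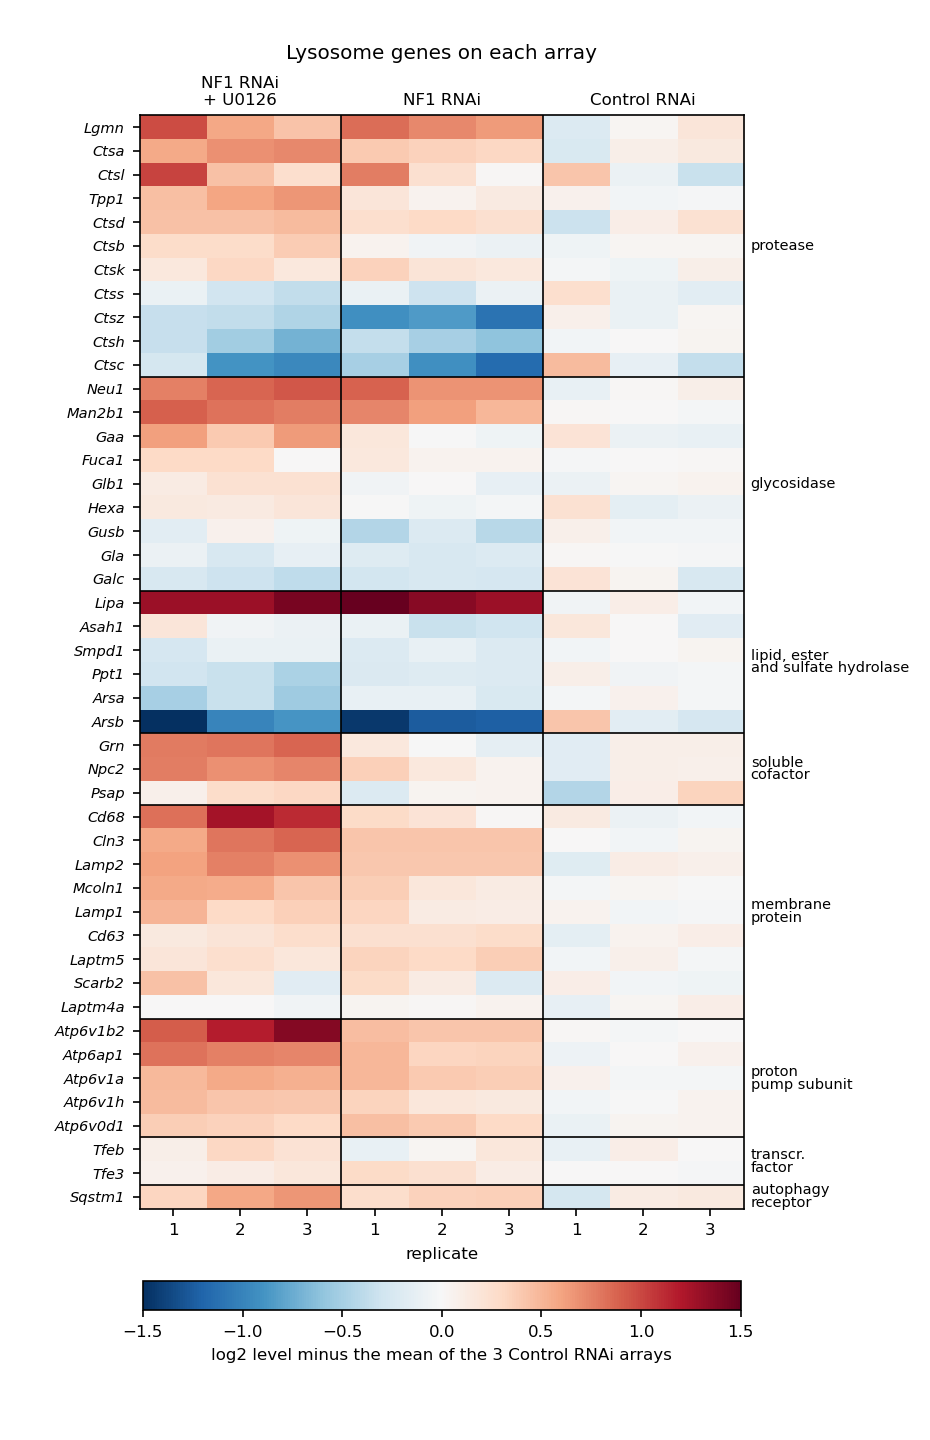
Level of the 46 measured lysosome genes (rows, grouped by role) on each of the 9 arrays (columns, by replicate within NF1 RNAi + U0126, NF1 RNAi and Control RNAi), as the log2 level minus the mean of the 3 Control RNAi arrays of the same gene; the colour scale ends at -1.5 and 1.5. The 5 proton pump subunits are red on all 6 NF1 RNAi arrays with or without U0126, Lipa is the darkest red row and Arsb the darkest blue, and Grn, Npc2 and Cd68 are strongly red on the 3 NF1 RNAi + U0126 arrays.

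The plot of fold changes by role shows how the members of each role moved. All 5 proton pump subunits were called higher in NF1 RNAi cells against Control RNAi cells, with a median of 0.39, where 13.0% of all genes were higher. The 26 hydrolases of the 3 enzyme groups were divided, with 5 higher (19.2%), 7 lower (26.9%, all genes 13.3%) and a median of -0.05. Of the 9 measured membrane proteins, 4 were called higher (44.4%), Lamp2 among them on 1 of its 2 probe sets, and all 9 fold changes were positive, with a median of 0.22. When U0126 was present, 6 of the 26 hydrolases were higher (23.1%, all genes 6.71%) and 1 lower (3.85%, all genes 7.02%) than with NF1 RNAi alone, with a median of 0.15. By NF1 RNAi + U0126 against Control RNAi, 10 hydrolases were higher (38.5%, all genes 17.9%) and 6 lower (23.1%, all genes 17.6%), 6 of 9 membrane proteins were higher (66.7%), and again all 5 pump subunits were higher, with a median of 0.53. The shares of all genes beside these roles, and beside the lists below, include dim genes. Among the 10159 genes of the refit, 1953 were higher and 1875 lower with NF1 RNAi against Control RNAi. With U0126 against NF1 RNAi these counts were 1002 and 1097, and with NF1 RNAi + U0126 against Control RNAi 2466 and 2449. Shares of each role are not given for that refit. These differences between roles are counts and medians and were not tested against each other.

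**Figure D2:**
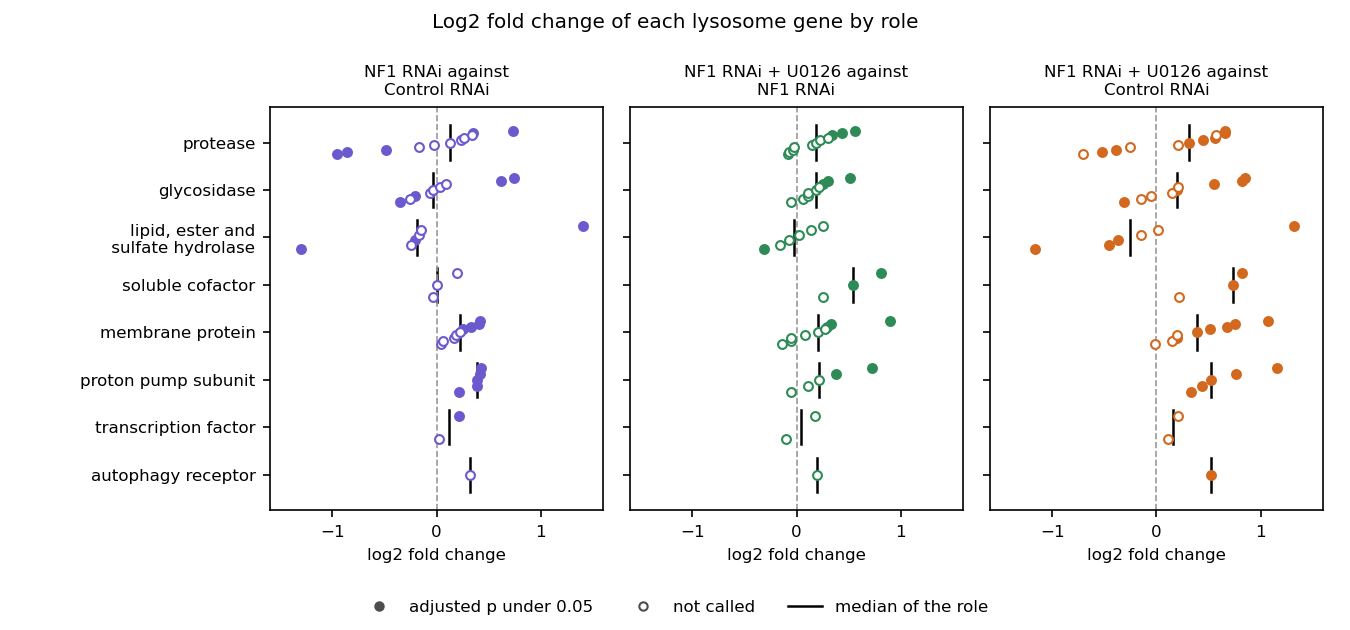
Log2 fold change (horizontal axis) of each measured lysosome gene by role (rows) in the 3 comparisons (panels); filled points have an adjusted p under 0.05 and the black bar is the median of the role. Proton pump subunits lie between 0.22 and 0.43 in the first panel and between 0.34 and 1.16 in the last, while hydrolases lie on both sides of 0.

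Calls close to the threshold rested on single arrays. With NF1 RNAi against Control RNAi, the call of Ppt1 was lost without any 1 of 7 arrays, all but NF1 RNAi + U0126 replicates 1 and 3. Cd63 lost its call without Control RNAi replicate 1 or 2, any NF1 RNAi array or NF1 RNAi + U0126 replicate 2, and Gla without Control RNAi replicate 1 or 2 or any NF1 RNAi array. Tfe3 lost it without any Control RNAi array, NF1 RNAi replicate 1 or 2 or NF1 RNAi + U0126 replicate 2. For Atp6v1h these were replicates 1 and 2 of Control RNAi and of NF1 RNAi and replicates 2 and 3 of NF1 RNAi + U0126, and for Ctsc replicates 1 and 2 of Control RNAi, 2 and 3 of NF1 RNAi and 2 of NF1 RNAi + U0126. Ctsa lost it without any NF1 RNAi array and Gusb without NF1 RNAi replicate 1 or 3.

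With U0126 against NF1 RNAi, Cln3 lost its call without any NF1 RNAi array or NF1 RNAi + U0126 replicate 2 or 3, and Glb1 without any of these 5 or Control RNAi replicate 2. Gaa lost it without NF1 RNAi replicate 2 or 3 or NF1 RNAi + U0126 replicate 3. Gusb depended on Control RNAi replicates 2 and 3, NF1 RNAi replicates 1 and 3 and NF1 RNAi + U0126 replicates 2 and 3, Mcoln1 on Control RNAi replicates 2 and 3, NF1 RNAi replicates 2 and 3 and NF1 RNAi + U0126 replicates 1 and 2, and Arsa on NF1 RNAi replicates 1 and 2 and NF1 RNAi + U0126 replicates 1 and 3. With NF1 RNAi + U0126 against Control RNAi, Galc lost its call without any array but Control RNAi replicate 3. Glb1 lost it there without any array but NF1 RNAi replicate 3 and NF1 RNAi + U0126 replicate 1. Laptm5 lost it without Control RNAi replicate 1 or 3 or NF1 RNAi + U0126 replicate 1 or 2, and Ctsd without NF1 RNAi + U0126 replicate 3. The other called lysosome genes kept their call with each array left out in turn.

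Among the proteases, Ctsz fell and Lgmn rose after the knockdown. Ctsz, which encodes cathepsin Z, a carboxypeptidase, had 8.20, 8.17 and 8.08 on the NF1 RNAi + U0126 arrays, 7.62, 7.69 and 7.44 on the NF1 RNAi arrays and 8.62, 8.44 and 8.56 on the Control RNAi arrays. The 3 groups did not overlap, with NF1 RNAi lowest, Control RNAi highest and the U0126 group between them. Ctsz fell by 0.95 ± 0.08 in NF1 RNAi cells against Control RNAi cells (adjusted p = 9.32e-05), was higher by 0.57 ± 0.08 with U0126 than with NF1 RNAi alone (adjusted p = 0.00244), and still fell by 0.39 ± 0.08 in NF1 RNAi + U0126 cells against Control RNAi cells (adjusted p = 0.00538).

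Lgmn, which encodes legumain, an asparaginyl endopeptidase that processes cathepsins, had 10.99, 10.59 and 10.44 with NF1 RNAi + U0126, 10.85, 10.73 and 10.65 with NF1 RNAi and 9.80, 10.03 and 10.19 with Control RNAi. Every array with NF1 RNAi, with or without the inhibitor, was above the 3 control arrays, and the groups with and without U0126 overlapped. Its rise was 0.73 ± 0.15 with NF1 RNAi (adjusted p = 0.00625) and 0.66 ± 0.15 with NF1 RNAi + U0126 (adjusted p = 0.00695), each against Control RNAi, and the difference between those groups was -0.07 ± 0.15 (adjusted p = 0.824).

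Ctsc, for cathepsin C, the dipeptidyl peptidase that activates serine proteases of immune cells, had 9.28, 8.65 and 8.57 with NF1 RNAi + U0126, 9.04, 8.62 and 8.39 with NF1 RNAi and 10.02, 9.42 and 9.19 with Control RNAi. Replicate 1 was the highest array in each group, and the NF1 RNAi arrays lay below all control arrays. The decrease by 0.86 ± 0.26 in NF1 RNAi cells had an adjusted p of 0.0403. In NF1 RNAi + U0126 cells against Control RNAi cells the difference was -0.71 ± 0.26 (adjusted p = 0.0643), called once the replicate number was a block in the fit (adjusted p = 0.000154).

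Tpp1, the tripeptidyl peptidase lost in a childhood neuronal ceroid lipofuscinosis, had 10.77, 10.91 and 10.98 with NF1 RNAi + U0126, 10.50, 10.38 and 10.46 with NF1 RNAi and 10.38, 10.28 and 10.30 with Control RNAi. The U0126 group was above both others on every array, and NF1 RNAi and Control RNAi overlapped. With U0126 it rose by 0.44 ± 0.07 against NF1 RNAi (adjusted p = 0.00419), whereas NF1 RNAi alone differed from Control RNAi by 0.13 ± 0.07 (adjusted p = 0.239).

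Ctsa, for the protective protein that stabilises neuraminidase and beta-galactosidase, had 12.44, 12.55 and 12.59 with NF1 RNAi + U0126, 12.26, 12.21 and 12.18 with NF1 RNAi and 11.64, 11.95 and 12.01 with Control RNAi. The groups followed each other without overlap, from U0126 at the top to Control RNAi at the bottom. It rose by 0.35 ± 0.10 in NF1 RNAi cells (adjusted p = 0.0261) and by 0.66 ± 0.10 in NF1 RNAi + U0126 cells (adjusted p = 0.000779), both against Control RNAi. The step between them, 0.31 ± 0.10, had an adjusted p of 0.0683, or 0.0463 with the replicate block.

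Ctsh, an aminopeptidase, fell by 0.49 ± 0.10 in NF1 RNAi cells against Control RNAi cells (adjusted p = 0.00652) and fell by 0.53 ± 0.10 in NF1 RNAi + U0126 cells (adjusted p = 0.00301). Ctsb, a cysteine protease, was 0.34 ± 0.06 higher with U0126 than with NF1 RNAi alone (adjusted p = 0.00865), and the aspartic protease Ctsd was 0.45 ± 0.12 higher in NF1 RNAi + U0126 than in Control RNAi cells (adjusted p = 0.0177). Ctsl, a further cysteine protease, was called in no comparison, although all 3 of its differences were called with the replicate block. They were 0.34 for the knockdown (adjusted p with the block = 0.00212), 0.23 for U0126 in knockdown cells (0.0196) and 0.57 for both together (0.000134). Without the block, a second Ctsl probe set rose by 0.96 ± 0.24 for both together (adjusted p = 0.0148 over all probe sets). The mean of its probe sets was also called there. The group SDs of Ctsl were 0.40, 0.39 and 0.39, with replicate 1 the highest array in each group. Ctsk and Ctss, the cathepsins of osteoclasts and of antigen-presenting cells, averaged between 5.62 and 6.04 in the 3 groups and passed no test.

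Of the 9 glycosidases, Neu1 and Man2b1 rose and Gla and Gusb fell in NF1 RNAi cells against Control RNAi cells, with a median of -0.03 over the group. Neu1, the neuraminidase that removes terminal sialic acid, had 8.57, 8.70 and 8.75 with NF1 RNAi + U0126, 8.71, 8.49 and 8.49 with NF1 RNAi and 7.71, 7.84 and 7.91 with Control RNAi. All 6 arrays with NF1 RNAi lay above the control arrays, and U0126 did not separate them. Its rise was 0.74 ± 0.09 with NF1 RNAi (adjusted p = 0.000388) and 0.85 ± 0.09 with NF1 RNAi + U0126 (adjusted p = 9.92e-05) against Control RNAi.

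Man2b1, the alpha-mannosidase that trims glycoprotein sugars, had 11.12, 11.04 and 11.00 with NF1 RNAi + U0126, 10.95, 10.84 and 10.73 with NF1 RNAi and 10.24, 10.23 and 10.20 with Control RNAi. The 3 groups did not overlap, and the control arrays were the lowest. It rose by 0.61 ± 0.07 with NF1 RNAi (adjusted p = 0.000339) and by 0.83 ± 0.07 with NF1 RNAi + U0126 (adjusted p = 3.54e-05), and the difference of 0.21 ± 0.07 between these had an adjusted p of 0.0754, or 0.0387 with the replicate block.

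Gaa, the acid alpha-glucosidase that degrades glycogen, whose window is printed above, had 10.55, 10.33 and 10.57 with NF1 RNAi + U0126, 10.11, 9.94 and 9.87 with NF1 RNAi and 10.14, 9.84 and 9.82 with Control RNAi. The U0126 group was above both others on every array, and those 2 overlapped. It was higher by 0.51 ± 0.11 with U0126 than with NF1 RNAi alone (adjusted p = 0.0147) and by 0.55 ± 0.11 than with Control RNAi (adjusted p = 0.00403), whereas NF1 RNAi differed from Control RNAi by 0.03 ± 0.11 (adjusted p = 0.86).

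Gusb, the beta-glucuronidase, had 10.14, 10.36 and 10.23 with NF1 RNAi + U0126, 9.85, 10.09 and 9.89 with NF1 RNAi and 10.37, 10.26 and 10.26 with Control RNAi. NF1 RNAi was the lowest group, apart from both others, which overlapped. It fell by 0.35 ± 0.08 with NF1 RNAi against Control RNAi (adjusted p = 0.0141), was higher by 0.30 ± 0.08 with U0126 than without it in knockdown cells (adjusted p = 0.0475), and differed by -0.05 ± 0.08 between NF1 RNAi + U0126 and Control RNAi (adjusted p = 0.652). Glb1, the beta-galactosidase, was higher by 0.26 ± 0.06 with U0126 than with NF1 RNAi alone (adjusted p = 0.0308). Galc, the galactosylceramidase that degrades a major myelin lipid, fell by 0.31 ± 0.10 in NF1 RNAi + U0126 cells against Control RNAi cells (adjusted p = 0.042). Gla, the alpha-galactosidase, fell by 0.21 ± 0.06 in NF1 RNAi cells (adjusted p = 0.0241). Its second probe set differed there by -0.0013 ± 0.0727 (adjusted p = 0.994 over all probe sets), and the Gla call was lost with the mean of both. Hexa and Fuca1, for a hexosaminidase subunit and a fucosidase, passed no test, with differences between -0.03 and 0.20.

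The lipid, ester and sulfate hydrolases held the largest rise and the largest fall among the 46 genes after the knockdown. Lipa, the acid lipase that frees cholesterol and fatty acids from lipoprotein lipids, had 12.61, 12.61 and 12.75 with NF1 RNAi + U0126, 12.89, 12.70 and 12.61 with NF1 RNAi and 11.28, 11.42 and 11.28 with Control RNAi. All 6 arrays with NF1 RNAi were more than 1 log2 unit above every control array, and those with and without U0126 overlapped. The rise of 1.40 ± 0.09, or 2.64-fold, in NF1 RNAi cells had an adjusted p of 2.44e-05, and with NF1 RNAi + U0126 it was 1.33 ± 0.09, or 2.51-fold (adjusted p = 1.08e-05). Between NF1 RNAi + U0126 and NF1 RNAi the difference was -0.08 ± 0.09 (adjusted p = 0.629).

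Arsb, the sulfatase that acts on dermatan and chondroitin sulfate, had 8.55, 9.17 and 9.28 with NF1 RNAi + U0126, 8.71, 8.92 and 8.94 with NF1 RNAi and 10.58, 10.00 and 9.91 with Control RNAi. The control arrays were the highest, with replicate 1 highest of them, and the other groups overlapped each other below. Against Control RNAi it fell by 1.31 ± 0.22 in NF1 RNAi cells (adjusted p = 0.0027) and fell by 1.16 ± 0.22 in NF1 RNAi + U0126 cells (adjusted p = 0.00311). A second probe set for Arsb fell by 1.32 ± 0.21 in each of these comparisons.

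Arsa, the arylsulfatase that removes sulfate from the myelin lipid sulfatide, had 8.79, 8.96 and 8.75 with NF1 RNAi + U0126, 9.18, 9.18 and 9.06 with NF1 RNAi and 9.26, 9.35 and 9.26 with Control RNAi. The U0126 group was the lowest and NF1 RNAi lay just under Control RNAi, without overlap. Arsa was the only lysosome gene called lower with U0126 against NF1 RNAi alone, where it fell by 0.31 ± 0.07 (adjusted p = 0.021), and it fell by 0.46 ± 0.07 in NF1 RNAi + U0126 cells against Control RNAi cells (adjusted p = 0.00108). Ppt1, a thioesterase that removes palmitate from proteins, fell by 0.21 ± 0.07 in NF1 RNAi cells (adjusted p = 0.0486) and fell by 0.37 ± 0.07 in NF1 RNAi + U0126 cells (adjusted p = 0.00251), each against Control RNAi. Smpd1, the acid sphingomyelinase, passed no test. Asah1, the acid ceramidase, passed none without the replicate block, but with it was called for its difference of -0.24 after the knockdown (adjusted p = 0.0165) and for its 0.26 with U0126 in knockdown cells (adjusted p = 0.0219).

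Among the 3 soluble cofactors, Grn and Npc2 were higher with U0126 than in both other groups. Grn, which encodes progranulin, a secreted and lysosomal glycoprotein whose loss causes a neuronal ceroid lipofuscinosis in humans, had 12.77, 12.80 and 12.86 with NF1 RNAi + U0126, 12.14, 11.98 and 11.85 with NF1 RNAi and 11.82, 12.08 and 12.08 with Control RNAi. The 3 arrays with U0126 stood above all 6 others, which overlapped each other. Grn rose by 0.81 ± 0.10, or 1.76-fold, with U0126 against NF1 RNAi alone (adjusted p = 0.000856) and by 0.82 ± 0.10 against Control RNAi (adjusted p = 0.000223), and NF1 RNAi differed from Control RNAi by 0.00 ± 0.10 (adjusted p = 0.985).

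Npc2, the protein that hands cholesterol to the product of Npc1, had 13.48, 13.40 and 13.45 with NF1 RNAi + U0126, 13.07, 12.87 and 12.77 with NF1 RNAi and 12.54, 12.80 and 12.78 with Control RNAi. Again the U0126 group lay above both others and those overlapped. It rose by 0.54 ± 0.09 against NF1 RNAi (adjusted p = 0.00623) and by 0.73 ± 0.09 against Control RNAi (adjusted p = 0.000397). Psap, the precursor of the saposins that present sphingolipids to hydrolases, passed no test, with group SDs of 0.13, 0.15 and 0.39 for NF1 RNAi + U0126, NF1 RNAi and Control RNAi.

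Of the membrane proteins, Laptm5, Cln3 and Cd63 rose with NF1 RNAi against Control RNAi, Lamp2 was called higher on 1 of its 2 probe sets and lower on the other, and Cd68, Cln3 and Mcoln1 rose with U0126 against NF1 RNAi alone. Cln3, the multispanning protein lost in juvenile neuronal ceroid lipofuscinosis, whose window holds 2 copies of CACGTG, had 8.19, 8.42 and 8.50 with NF1 RNAi + U0126, 8.04, 8.04 and 8.04 with NF1 RNAi and 7.62, 7.57 and 7.66 with Control RNAi. The 3 groups were separate, with the U0126 group highest, NF1 RNAi next and Control RNAi lowest. The rise was 0.42 ± 0.08 with NF1 RNAi (adjusted p = 0.00457), 0.33 ± 0.08 with U0126 against NF1 RNAi (adjusted p = 0.0238) and 0.75 ± 0.08 with NF1 RNAi + U0126 against Control RNAi (adjusted p = 0.000128).

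Cd68, a heavily glycosylated membrane protein abundant in macrophage lysosomes, had 6.69, 7.10 and 6.98 with NF1 RNAi + U0126, 6.13, 6.06 and 5.87 with NF1 RNAi and 5.99, 5.76 and 5.81 with Control RNAi. Only the arrays with U0126 stood apart, and the other groups overlapped. It rose by 0.90 ± 0.12, or 1.87-fold, against NF1 RNAi (adjusted p = 0.00147) and by 1.07 ± 0.12, or 2.10-fold, against Control RNAi (adjusted p = 0.000167). The 14 measured macrophage and leukocyte markers, of 15 listed, summed to 563.8 to 608.1 in intensity with NF1 RNAi + U0126. The sums were 552.3 to 582.5 with NF1 RNAi and 493.7 to 558.5 with Control RNAi. The group means of the single markers were low, between 3.25 and 6.34 on the log2 scale. By limma none of the 14 was called with U0126 against NF1 RNAi (all genes 13.7%), nor had any an unadjusted p under 0.05 there. Tyrobp and Fcer1g were called higher with NF1 RNAi + U0126 against Control RNAi (14.3% of the 14, all genes 17.9%). Their mean levels were 4.59 and 5.11 against 4.30 and 4.83. Over the 14 markers the log2 fold change was positive for 10 with U0126 against NF1 RNAi (median 0.06) and for 13 with NF1 RNAi + U0126 against Control RNAi (median 0.12, from -0.04 for Ptprc to 0.29 for Tyrobp). The part of macrophages in the Cd68 result was not tested.

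Lamp2, a main structural glycoprotein of the lysosomal membrane, had 12.76, 12.92 and 12.85 with NF1 RNAi + U0126, 12.57, 12.56 and 12.57 with NF1 RNAi and 11.98, 12.27 and 12.23 with Control RNAi. On this probe set the groups did not overlap and the control arrays were lowest. There it was higher by 0.41 ± 0.08 with NF1 RNAi (adjusted p = 0.00664) and by 0.68 ± 0.08 with NF1 RNAi + U0126 (adjusted p = 0.000265) against Control RNAi, and by 0.28 ± 0.08 between the 2 (adjusted p = 0.0577, or 0.0307 with the replicate block). The other Lamp2 probe set went the other way, by -0.34 ± 0.06 for the knockdown (adjusted p = 0.00428 over all probe sets) and by -0.17 ± 0.06 for the knockdown with U0126, and the call after the knockdown was lost with the mean of both, so no direction is settled for the gene. Lamp2 was the only called lysosome gene whose probe sets differed in sign. In NF1 RNAi against Control RNAi, 12 called genes had further probe sets, and 13 of these 14 had the sign of the first. A shared sign was not always a shared change. The second Gla probe set differed by -0.0013 and that of Lgmn by 0.061 (adjusted p = 0.994 and 0.757 over all probe sets). Their mean levels were 9.02 and 4.81. The first Lgmn probe set was at 10.47, so the second is dim and says little about that rise. With the mean of probe sets Gla and Tfe3 also lost their call there.

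Lamp1, the companion of Lamp2, whose window holds 5 copies of CACGTG, averaged 13.02 ± 0.11 with NF1 RNAi + U0126, 12.82 ± 0.12 with NF1 RNAi and 12.63 ± 0.05 with Control RNAi (SD, n = 3 each). It rose by 0.39 ± 0.08 with NF1 RNAi + U0126 against Control RNAi (adjusted p = 0.00513), and its differences of 0.18 after the knockdown and 0.20 with U0126 in knockdown cells were called with the replicate block alone (adjusted p = 0.04 and 0.0405, without it 0.133 and 0.139). Mcoln1, the calcium channel of the lysosomal membrane, lay between 8.91 and 9.06 with NF1 RNAi + U0126, between 8.62 and 8.87 with NF1 RNAi and between 8.47 and 8.52 with Control RNAi. Its rise was 0.29 ± 0.08 with U0126 against NF1 RNAi (adjusted p = 0.037) and 0.51 ± 0.08 against Control RNAi (adjusted p = 0.000893). Between NF1 RNAi and Control RNAi cells its difference of 0.22 had an adjusted p of 0.0633, or 0.0457 with the replicate block. The tetraspanin Cd63 rose by 0.25 ± 0.07 in NF1 RNAi cells (adjusted p = 0.0339), and its difference of 0.20 ± 0.07 with NF1 RNAi + U0126 against Control RNAi was called with the block (adjusted p = 0.037, without it 0.0646). Laptm5, known mainly from blood cells, rose by 0.33 ± 0.06 with NF1 RNAi (adjusted p = 0.00336) at mean levels of 7.32 ± 0.04 and 6.98 ± 0.07 in NF1 RNAi and Control RNAi cells. Scarb2, the receptor that carries glucocerebrosidase to lysosomes, and Laptm4a passed no test, with differences between -0.05 and 0.15.

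**Figure D3:**
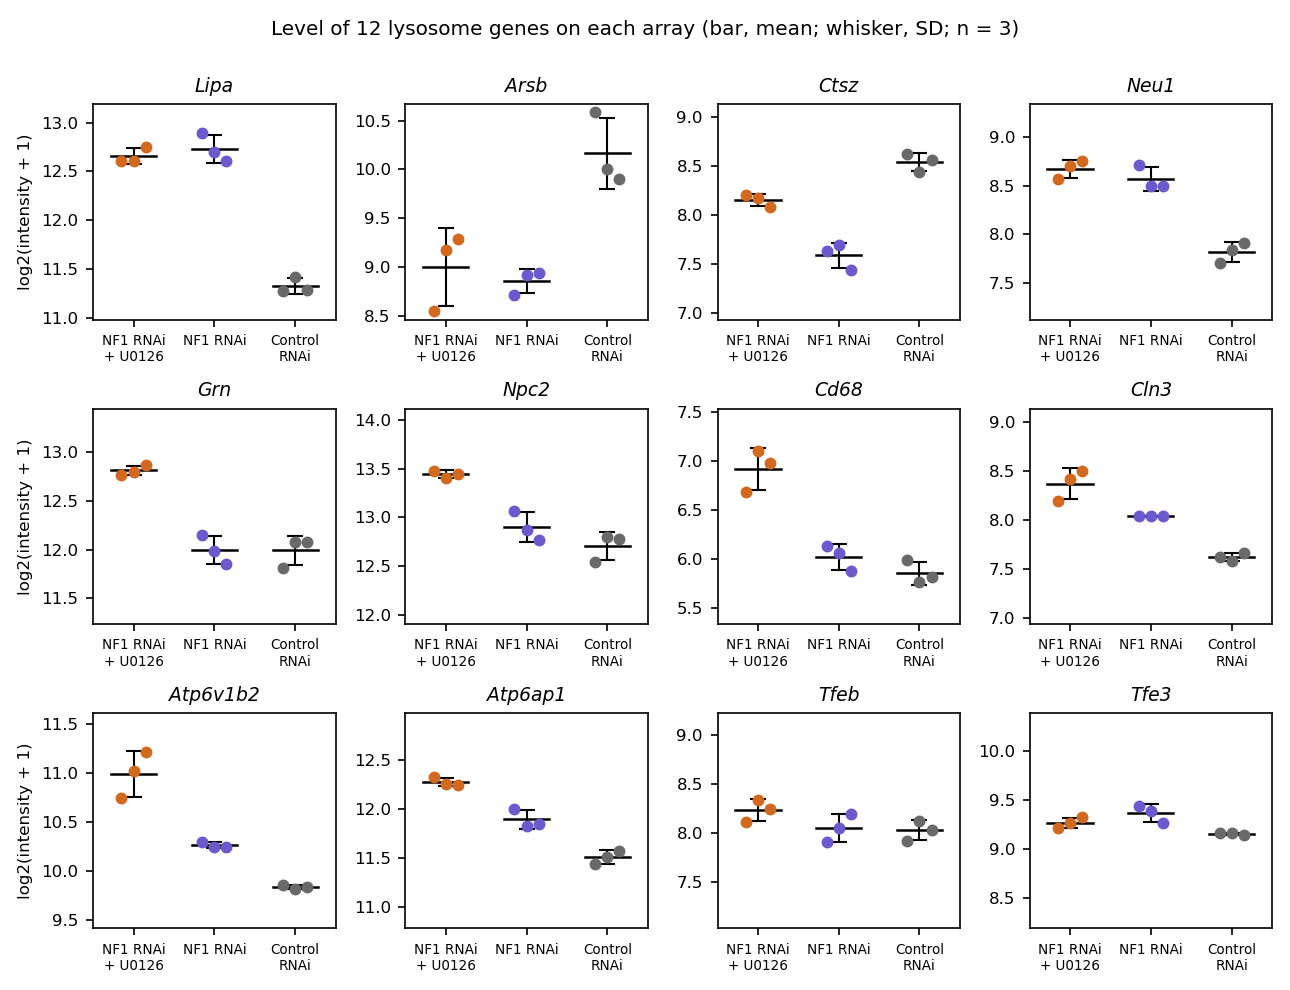
Log2(intensity + 1) of 12 lysosome genes on each array of NF1 RNAi + U0126, NF1 RNAi and Control RNAi (points; bar, mean; whisker, SD; n = 3 each); every panel spans the same number of log2 units and the axes do not start at 0. Lipa and Neu1 are high in both knockdown groups, Arsb is low in both, Grn, Npc2 and Cd68 stand apart with U0126, and Cln3, Atp6v1b2 and Atp6ap1 are highest with NF1 RNAi + U0126, next with NF1 RNAi and lowest with Control RNAi.

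The V-ATPase has a peripheral V1 sector that hydrolyses ATP, a membrane-embedded V0 sector that conducts protons, and accessory proteins, and each of the 5 subunits among the lysosome genes rose in both comparisons with Control RNAi. Atp6v1b2, a V1 subunit next to the catalytic site, had 10.75, 11.02 and 11.22 with NF1 RNAi + U0126, 10.30, 10.25 and 10.25 with NF1 RNAi and 9.86, 9.81 and 9.84 with Control RNAi. The 3 groups were well apart, with the U0126 group highest. It rose by 0.43 ± 0.10 with NF1 RNAi (adjusted p = 0.0146), by a further 0.73 ± 0.10 with U0126 against NF1 RNAi (adjusted p = 0.00219), and by 1.16 ± 0.10, or 2.23-fold, with NF1 RNAi + U0126 against Control RNAi (adjusted p = 5.48e-05).

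Atp6ap1, an accessory subunit that helps the pump to assemble, had 12.33, 12.26 and 12.25 with NF1 RNAi + U0126, 12.01, 11.83 and 11.85 with NF1 RNAi and 11.44, 11.52 and 11.58 with Control RNAi. Again the groups were separate and in the same order. The increase was 0.39 ± 0.07 with NF1 RNAi (adjusted p = 0.0033), 0.38 ± 0.07 with U0126 against NF1 RNAi (adjusted p = 0.0065) and 0.77 ± 0.07 with NF1 RNAi + U0126 against Control RNAi (adjusted p = 5.07e-05).

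Atp6v1a, the catalytic V1 subunit, had 11.21, 11.30 and 11.26 with NF1 RNAi + U0126, 11.23, 11.12 and 11.09 with NF1 RNAi and 10.80, 10.70 and 10.70 with Control RNAi. The control arrays lay below the 6 others, among which the 2 groups overlapped. It rose by 0.42 ± 0.06 with NF1 RNAi (adjusted p = 0.00133) and by 0.53 ± 0.06 with NF1 RNAi + U0126 (adjusted p = 0.000215) against Control RNAi, and the difference between those groups was 0.11 ± 0.06 (adjusted p = 0.302). Atp6v0d1, a V0 subunit that links the sectors, rose by 0.38 ± 0.07 with NF1 RNAi (adjusted p = 0.00284), and Atp6v1h, a regulatory V1 subunit, by 0.22 ± 0.07 (adjusted p = 0.0363).

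The wider pump did not move as a unit. Of 12 further V-ATPase genes listed, all measured, 4 rose (33.3%, all genes 13.0%) and 3 fell (25.0%, all genes 13.3%) with NF1 RNAi against Control RNAi, with a median of 0.10. Atp6v1d, which forms part of the rotating stalk, rose by 0.54 ± 0.10 (adjusted p = 0.00406) and Atp6ap2, the accessory prorenin receptor, by 0.57 ± 0.09 (adjusted p = 0.00181). Atp6v0c, the proton-binding ring subunit, fell by 1.54 ± 0.06 (adjusted p = 2.97e-06), and Atp6v0a1, an a subunit that forms the proton channel with it, fell by 1.21 ± 0.09 (adjusted p = 4.51e-05). The third that fell, Tcirg1, rested on 1 of its 2 probe sets. These differed by -0.47 and -0.17 there, and by -0.32 and -0.03 with NF1 RNAi + U0126 against Control RNAi. For the second, the adjusted p over all probe sets was 0.241 and 0.862. With U0126 against NF1 RNAi 5 of the 12 rose (41.7%, all genes 6.71%), among them Atp6v1d by 0.68 ± 0.10 (adjusted p = 0.00264), Atp6v0c by 0.58 ± 0.06 (adjusted p = 0.000498) and the V1 subunit Atp6v1f by 0.40 ± 0.06 (adjusted p = 0.00366). Relative to Control RNAi, Atp6v0c still fell by 0.96 ± 0.06 in NF1 RNAi + U0126 cells (adjusted p = 1.02e-05), where 7 of the 12 rose (58.3%, all genes 17.9%) and 3 fell (25.0%, all genes 17.6%). Over all 17 pump genes, 9 rose and 3 fell with NF1 RNAi (70.6% called, all genes 26.3%), and 12 rose and 3 fell with NF1 RNAi + U0126 (88.2% called, all genes 35.5%), each against Control RNAi.

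**Figure D4:**
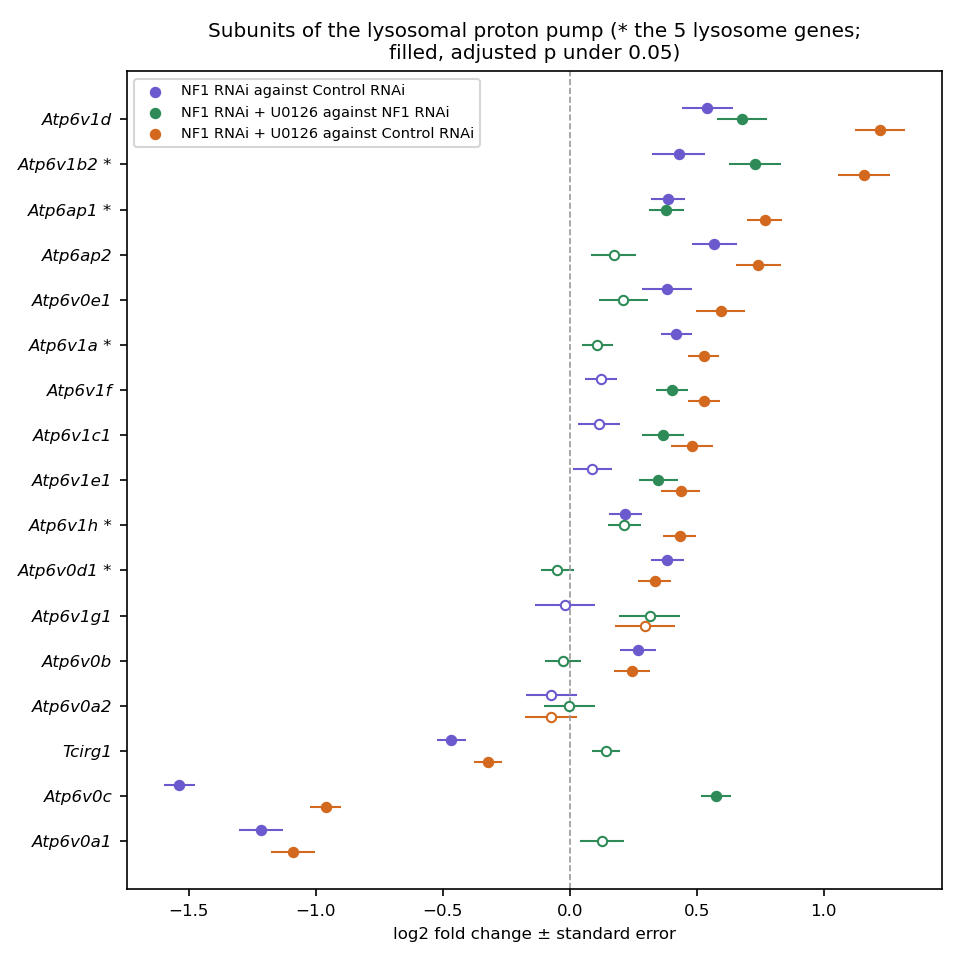
Log2 fold change (points; whiskers, standard error) of 17 V-ATPase genes (rows, ordered by NF1 RNAi + U0126 against Control RNAi; asterisks, the 5 lysosome genes of the main list) in the 3 comparisons; filled points have an adjusted p under 0.05. Most subunits lie right of 0. Against Control RNAi, the filled points left of 0 are those of Atp6v0c, Atp6v0a1 and Tcirg1, and Atp6v0a2 lies just left of it, not called.

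The 2 transcription factors moved little at the RNA level. Tfeb had 8.11, 8.34 and 8.24 with NF1 RNAi + U0126, 7.91, 8.05 and 8.19 with NF1 RNAi and 7.92, 8.12 and 8.03 with Control RNAi. The 3 groups overlapped. Its difference of 0.21 ± 0.09 between NF1 RNAi + U0126 and Control RNAi had an adjusted p of 0.118, or 0.0373 with the replicate block.

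Tfe3 had 9.22, 9.26 and 9.33 with NF1 RNAi + U0126, 9.44, 9.39 and 9.26 with NF1 RNAi and 9.16, 9.16 and 9.14 with Control RNAi. All 6 arrays with NF1 RNAi were above the control arrays by a small margin. It rose by 0.21 ± 0.06 with NF1 RNAi against Control RNAi (adjusted p = 0.0348), a call lost when any 1 of 6 arrays was left out. The call was also lost with the mean of its probe sets. The cellular place of these proteins, through which their activity is mainly set, was not measured here. Of their relatives, Mitf differed by 0.09 ± 0.13 after the knockdown and by 0.13 ± 0.13 with U0126 in knockdown cells (adjusted p = 0.682 and 0.567), and Tfec averaged between 3.83 and 3.86 in the 3 groups.

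Sqstm1, which encodes p62, a receptor that brings ubiquitinated cargo to autophagosomes, had 12.83, 13.10 and 13.17 with NF1 RNAi + U0126, 12.77, 12.86 and 12.87 with NF1 RNAi and 12.24, 12.63 and 12.66 with Control RNAi. Both knockdown groups were above Control RNAi and overlapped each other. It rose by 0.52 ± 0.12 with NF1 RNAi + U0126 against Control RNAi (adjusted p = 0.0104), and its 0.32 ± 0.12 with NF1 RNAi had an adjusted p of 0.0915, or 0.0144 with the replicate block.

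Of 13 measured MiT/TFE factors and mTORC1 regulators, 2 rose and 1 fell with NF1 RNAi against Control RNAi. These are 23.1% called, close to the 26.3% of all genes, and with the replicate block 1 rose and 1 fell. With U0126 against NF1 RNAi 5 rose (38.5%, all genes 6.71%). Flcn, for folliculin, which acts on the Rag GTPases that hold TFE3 and TFEB in the cytoplasm, rose by 0.77 ± 0.09 with NF1 RNAi (adjusted p = 0.00035) and by a further 0.47 ± 0.09 with U0126 (adjusted p = 0.00793). Its partner Fnip1 rose by 0.60 ± 0.10 (adjusted p = 0.00505) and the Rag GTPase Rragd by 0.86 ± 0.14 (adjusted p = 0.00414) with U0126 against NF1 RNAi, Rragd at mean levels of 5.51 and 4.65. Rragc rose by 0.20 ± 0.06 with NF1 RNAi against Control RNAi (adjusted p = 0.0395, or 0.0514 with the replicate block), and Lamtor3, a subunit of the complex that anchors the Rag GTPases, fell by 0.26 ± 0.05 there (adjusted p = 0.00558).

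Sumf1 was listed with the sorting genes, although its product activates sulfatases and does not sort them. It converts a cysteine of every sulfatase, the products of Arsa and Arsb among them, into the catalytic residue. Sumf1 averaged 6.73 with NF1 RNAi + U0126, 6.65 with NF1 RNAi and 9.01 with Control RNAi. Against Control RNAi it fell by 2.36 ± 0.08 in NF1 RNAi cells (adjusted p = 1.69e-06) and fell by 2.28 ± 0.08 in NF1 RNAi + U0126 cells (adjusted p = 1.12e-06). Gnptab, which makes the mannose 6-phosphate tag, fell by 0.46 ± 0.09 in NF1 RNAi cells (adjusted p = 0.00687), and M6pr, 1 of the receptors for that tag, rose by 0.25 ± 0.06 (adjusted p = 0.014). Igf2r, the other receptor, rose by 0.89 ± 0.23 with U0126 against NF1 RNAi (adjusted p = 0.0353), a call lost when any 1 of 5 arrays was left out. In all, 1 of the 7 genes of this list rose (14.3%, all genes 13.0%) and 2 fell (28.6%, all genes 13.3%) with NF1 RNAi against Control RNAi. The 2 that fell were Gnptab and Sumf1, the latter not itself a sorting gene.

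Among 17 other lysosomal hydrolases and cofactors measured, of 25 listed, 5 rose and 5 fell with NF1 RNAi against Control RNAi (29.4% each, all genes 13.0% higher and 13.3% lower). Dnase2, which digests DNA, fell by 0.90 ± 0.07 (adjusted p = 7.03e-05), and Hyal2, a hyaluronidase, rose by 0.39 ± 0.09 (adjusted p = 0.0104). Gm2a, the activator protein that presents a ganglioside to hexosaminidase, fell by 0.55 ± 0.10 in NF1 RNAi cells (adjusted p = 0.00387) and was 0.51 ± 0.10 higher with U0126 than with NF1 RNAi alone (adjusted p = 0.00972). Ctso, a cysteine protease, fell by 1.52 ± 0.11 with U0126 against NF1 RNAi (adjusted p = 9.79e-05), at mean levels of 4.92 and 6.43. Of 17 other lysosomal membrane proteins measured, 4 rose and 1 fell with NF1 RNAi, which is 29.4% called and near the 26.3% of all genes. With the replicate block 6 rose and 2 fell. Gpnmb, a transmembrane glycoprotein of melanosomes and lysosomes, rose by 2.79 ± 0.28 with NF1 RNAi (adjusted p = 0.000187) and by 4.01 ± 0.28 with NF1 RNAi + U0126 (adjusted p = 1.55e-05) against Control RNAi, whereas Tpcn1, a cation channel of endosomes and lysosomes, fell by 0.58 ± 0.12 in NF1 RNAi cells (adjusted p = 0.00832) and the related Tpcn2 rose by 0.31 ± 0.06 (adjusted p = 0.00608). In the autophagy machinery 5 of 13 measured genes rose (38.5%, all genes 13.0%) and 2 fell (15.4%, all genes 13.3%) with NF1 RNAi, where Uvrag, a partner of the Beclin 1 complex, rose by 0.38 ± 0.06 (adjusted p = 0.00152) and Gabarap, a coat protein of autophagosomes, fell by 0.30 ± 0.06 (adjusted p = 0.00501). Optn, an autophagy receptor, rose by 0.65 ± 0.12 with U0126 against NF1 RNAi (adjusted p = 0.00914).

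Calls of the 9 lysosome genes with CACGTG in the promoter window stood beside those of the 28 measured genes whose window had none. With NF1 RNAi against Control RNAi, 3 of the 9 rose, while 10 of the 28 rose and 5 fell, where 13.0% of all genes rose and 13.3% fell. With U0126 against NF1 RNAi, 4 of the 9 and 7 of the 28 rose (all genes 6.71%). With NF1 RNAi + U0126 against Control RNAi, 7 of the 9 rose and 1 fell, Galc, while 14 of the 28 rose and 2 fell (all genes 17.9% higher and 17.6% lower). The median log2 fold changes were 0.22, 0.20 and 0.39 for the 9 genes and 0.18, 0.13 and 0.37 for the 28 genes, in the same order of comparisons. The difference between these 2 sets was not tested. Among the 74 genes of the other lists with a window, 17 (23.0%) held CACGTG.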

How the data were processed

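RNA of 9 cultures, 3 per group, was measured on Affymetrix rat arrays. The deposited intensity values, 1 per probe set and array, had been made by the authors with RMA per the submitters' processing notes; background correction, quantile normalization and a summary across probes make arrays comparable and can understate changes of dim probe sets. They were on a linear scale from 5.62 to 25800.2; no build or probe alignment is given in the sources used here. Precision is limited by the number of arrays.

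Of 31099 probe sets, 57 controls were left out; 20826 of the remaining 31042 were annotated to exactly 1 gene, 436 to several and 9780 to none. Symbols were updated through the RefSeq table of GRCr8 (20758 probe sets by gene ID, 2 by accession, 53 by current symbol, 9 by an older symbol, 4 kept). The probe set with the highest mean stood for each of 14213 genes, 4526 of which had more than 1. Values were log2(value + 1), with a pseudocount of 1. A model of 3 group means over all 9 arrays (6 residual degrees of freedom) was fitted with limma 3.58.1 in R 4.3.3, and p-values were adjusted by Benjamini-Hochberg over all genes at a threshold of 0.05. The fit was tested on simulated data. The replicate number was left out of this fit. The deviations of same-numbered arrays from their group means correlated in all 9 pairs (r = 0.17 to 0.62). The 18 pairs of different number ran from -0.52 to 0.4. Those of replicate 1 with replicate 2 or 3 were all negative, and those of replicate 2 with replicate 3 all positive (0.14 to 0.402). Replicate 1 was thus set apart in each group, and a pairing of replicates 2 and 3 by number is not shown. Adjusted p-values with the number as a block are printed where they change the call of a named gene. The labels do not say what a number marks.

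The members, the other lists and the tests were chosen with earlier results of these data known. Members given array by array are Tfeb, Tfe3, Sqstm1 and, per role and comparison, the 2 called members with the largest absolute change (or, where none was called, the member with the smallest p); from other lists, up to 3 called genes per list and comparison, with Mitf, Tfec and Nf1 always. Alternatives were log2(value), log2(value + 16), a filter at log2 6 on at least 3 arrays, averaging all probe sets of a gene, median centring, quantile normalization, array weights, an intensity trend with robust eBayes, only the compared groups, adjusted p under 0.01, the replicate block, leaving out all replicate 1 arrays and leaving out each array.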

Additional observations from a re-analysis of the deposited data

How the results depend on the processing

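In no alternative did a called lysosome gene change sign, and of the values of single named genes 4595 kept their side of the threshold, 266 lost the call and 104 gained one. Median centring of the arrays moved the median log2 fold change of the lysosome genes to 0.21 with NF1 RNAi and 0.34 with NF1 RNAi + U0126 against Control RNAi, and that of all genes to 0.08 and 0.12. With it, 62.2% of all called genes were higher with NF1 RNAi against Control RNAi (2547 higher, 1545 lower), against 49.5% without it, and 64.7% (3744 higher, 2039 lower) with NF1 RNAi + U0126 against Control RNAi, against 50.4%. The filter on dim genes gave a median of 0.32 for NF1 RNAi + U0126 against Control RNAi.

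Array weights, whose estimation did not converge fully, raised the lower calls among lysosome genes to 11 and all calls to 5980 with NF1 RNAi against Control RNAi, and all calls to 3261 with U0126 against NF1 RNAi. At an adjusted p under 0.01, 3 lysosome genes were lower among 2116 calls with NF1 RNAi against Control RNAi; 8 were higher and 0 lower among 904 calls with U0126 against NF1 RNAi by limma, where 3 were lower at an unadjusted p under 0.05; and 3303 genes were called with NF1 RNAi + U0126 against Control RNAi. Leaving out all replicate 1 arrays gave 4 lower lysosome genes and a median of 0.0876 with NF1 RNAi against Control RNAi, and 0 lower with U0126 against NF1 RNAi.

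Leaving out single arrays gave, with NF1 RNAi against Control RNAi, 11 to 16 higher and 3 to 7 lower lysosome genes, 2790 to 3755 calls and medians of 0.10 to 0.21. The lower count was 4 without Control RNAi replicate 1 or 2 or NF1 RNAi replicate 1 or 2, and 3 without NF1 RNAi replicate 3. With U0126 against NF1 RNAi the ranges were 8 to 16 higher, 0 to 1 lower, 1110 to 2587 calls and medians of 0.17 to 0.21; 8 were higher without NF1 RNAi replicate 3, and all calls were 1110 without NF1 RNAi replicate 2 and 1226 without NF1 RNAi + U0126 replicate 2. With NF1 RNAi + U0126 against Control RNAi they were 22 to 24 higher, 5 to 7 lower, 4107 to 5089 calls and medians of 0.26 to 0.34. The replicate block gave 19 higher and 8 lower, 19 higher and 1 lower, and 27 higher and 7 lower lysosome genes with NF1 RNAi against Control RNAi, U0126 against NF1 RNAi, and both against Control RNAi in that order, while calls over all genes also rose, to 4547, 2790 and 5793. Beside the calls gained that the text prints, it changed no other call of a lysosome gene. In the other lists it moved the counts of higher and lower genes to 6 and 5 (hydrolases), 6 and 2 (membrane proteins), 1 and 1 (MiT/TFE factors and regulators) and 4 and 2 (autophagy) with NF1 RNAi; to 6 and 2, 5 and 0, 4 and 0, and 1 and 1 with U0126 against NF1 RNAi, where 6 further pump genes rose; and with both against Control RNAi to 7 and 5 (hydrolases), 8 and 3 (further pump genes) and 5 and 2 (autophagy). The causes of these differences were not tested, and 3 arrays per group limit every count.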
